A study of Populus yunnanensis with 9 samples.

Results

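Transcript levels of 6 genes of the circadian clock and the photoperiod pathway were examined in leaves of Yunnan poplar (Populus yunnanensis) under cadmium (Cd) and nitrogen (N) treatment. The genes were taken from a list of identifiers by the role of their products, in a rule that holds no measured value, and they are 6 of the 41335 genes in the deposited data. They are LHY1 (Potri.002G180800.v3.0), LHY2 (Potri.014G106800.v3.0), TOC1 (Potri.015G061900.v3.0), GI (Potri.005G196700.v3.0), GI-like (Potri.002G064400.v3.0) and FT2 (Potri.010G179700.v3.0). The data list genes by identifier alone, and no annotation was used here, so these names are those of the list and were not checked. All 6 passed the filter on low counts, as did 27378 genes in total.

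In plants the circadian clock is a loop of genes that repress one another at different times of day. In Arabidopsis, LHY encodes a MYB-type transcription factor that is made around dawn and represses evening genes, among them TOC1 and GIGANTEA (GI). TOC1 encodes a pseudo-response regulator that is made towards the evening and in turn represses LHY. GIGANTEA links the clock to the measurement of day length, and FT encodes the mobile signal that this pathway controls. In poplar, FT2 is known to be expressed in leaves during long days and to sustain shoot growth. The amounts of morning (LHY) and evening (TOC1, GI) transcripts in a leaf therefore depend on the hour at which it is sampled.

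The plants were rooted cuttings of 15 wild trees, grown in soil with 3 cuttings in a pot under a long photoperiod in a chamber. The control (CK) received no addition, the Cd group received CdCl2 up to 480 mg Cd per kg dry soil, and the Cd + N group received the same Cd with NH4HCO3 up to 360 mg N per kg. Treatments lasted 60 d with an addition every 5 d, and the fourth to the sixth leaf below the apex of plants 4 months old were frozen. Each group has 3 libraries. The labels and the methods used here do not give the hour of harvest, the tree or pot behind a library, or what libraries with the same replicate number share, so p-values measure the spread between these libraries only. A part of the hour of harvest in the results was not tested. In whole leaves fewer cells of a type and less RNA per cell cannot be told apart.

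Between 31952278 and 40101176 reads were counted on genes in each library. Counts are given as TMM-normalized CPM, that is counts relative to the library total after scaling by edgeR's trimmed mean of M-values, which takes out differences in the makeup of libraries. The TMM factor was 0.912 in Cd replicate 1 against 1.09 and 1.1 in Cd replicates 2 and 3, so the Cd group was the least even in this respect. The other 6 factors lay between 0.954 and 1. Intervals given for single libraries are exact 95% Poisson intervals and cover counting error only.

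By CPM, which is not corrected for gene length, the evening genes were among the higher genes of these leaves and the morning genes were not. Averaged over the 9 libraries, GI had 233 CPM and GI-like 222 CPM, above 98.2% and 98% of the genes that passed the filter. TOC1 had 82.9 CPM, above 90.8% of these genes. LHY1 had 7.22 CPM and LHY2 4.37 CPM, above 40.0% and 32.2% of them. FT2 had 1.52 CPM, above 19.2%. The genes also differed in how far they varied. The highest library exceeded the lowest by 1.45 times for TOC1, 1.63 times for GI-like, 1.83 times for GI, 3.57 times for LHY1 and 4.22 times for LHY2. For FT2 the highest library had 157 reads and the lowest 1 read.

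**Figure D1:**
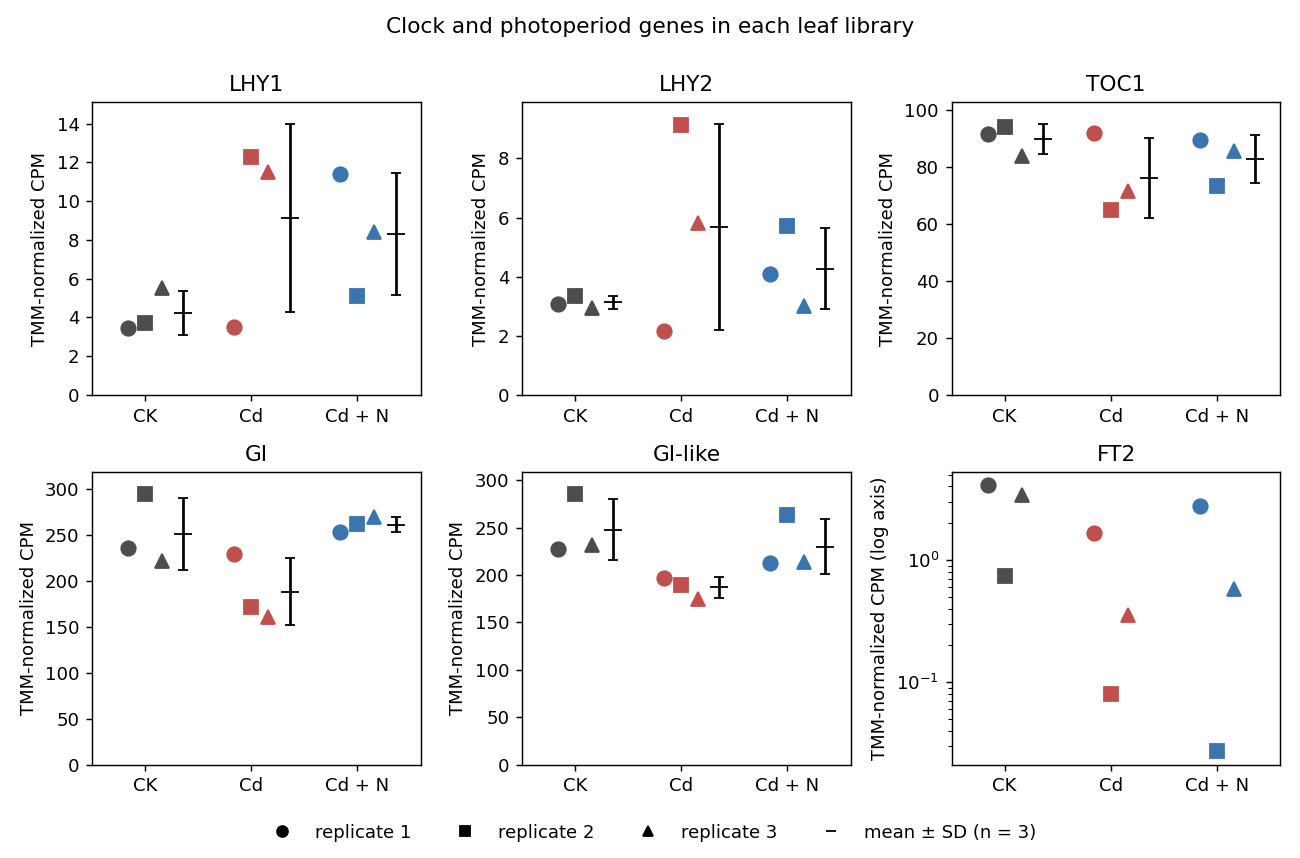
TMM-normalized CPM of the 6 genes (y axis) in CK, Cd and Cd + N leaves (x axis), with 1 point per library, a marker shape per replicate number and, except for FT2 with its logarithmic axis, the mean ± SD of the 3 libraries. Cd replicate 1 lies close to the CK libraries for LHY1 and TOC1 and below them for LHY2, while the other Cd libraries lie above CK for the LHY genes and below it for TOC1, and the replicate numbers of FT2 fall in the same order in each group.

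Levels of different genes can be set side by side only per length of transcript, and here this has a limit. On the FPKM scale (counts scaled to the gene length and the total count of the library), GI-like was highest at 50.1 to 76.8, followed by GI at 12.1 to 19.4 and TOC1 at 5.17 to 6.65. LHY1 had 0.21 to 0.875 FPKM and LHY2 0.0796 to 0.401. FT2 ranged from 0.0514 to 7.46 FPKM and so overlapped both TOC1 and the LHY pair. The ranges of GI-like, GI and TOC1 did not overlap, whereas those of LHY1 and LHY2 did. The lengths that the authors used can be recovered from the counts and the FPKM. They were 15327 bases for LHY1, 24762 for LHY2, 13635 for TOC1, 14682 for GI, 3585 for GI-like and 525 for FT2, while the median gene had 1449. Only 1.54% of genes with a recovered length were as long as TOC1 or longer. All 34971 recovered lengths were multiples of 3, but what they measure was not established. The reads of GI were 0.909 to 1.26 times those of GI-like, so their distance in FPKM rests on the recovered lengths, and the order of the members in FPKM is given with this reservation. Fold changes and correlations below compare one gene between libraries, and on counts the length has no effect on them. On log2(FPKM + 1) and log2(FPKM + 0.1) it has one. There the added constant weighs most where FPKM is low, as for the LHY genes. Ratios of reads between paralogs are given without a correction for length and serve only to compare libraries.

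The morning genes LHY1 and LHY2 were low in every control library and high in Cd replicates 2 and 3. LHY1 had 3.45, 3.73 and 5.52 CPM in CK replicates 1, 2 and 3. Under Cd it had 3.53, 12.3 and 11.5 CPM in the same order of replicates. Cd replicate 1 thus lay within the range of the control and the other Cd libraries above it. Under Cd + N, LHY1 had 11.4, 5.13 and 8.4 CPM. The lowest of these was within the range of CK and the other libraries were above it. The group means were 4.23 ± 1.13 CPM in CK, 9.13 ± 4.86 in Cd and 8.3 ± 3.13 in Cd + N (SD, n = 3 each).

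LHY2, the paralog of LHY1 in the list, was the most even of the morning genes in the control and the least even under Cd. It had 3.08, 3.36 and 2.94 CPM in CK, with a coefficient of variation of 6.69%. Under Cd it had 2.16, 9.12 and 5.8 CPM, which is a coefficient of variation of 61.1%. Cd replicate 1 was the lowest of all 9 libraries and Cd replicate 2 the highest, and their Poisson intervals (1.66 to 2.77 and 8.18 to 10.1 CPM) lay far apart. Under Cd + N it had 4.1, 5.73 and 3 CPM, with a mean of 4.27 ± 1.37 (SD, n = 3). Libraries of all 3 groups overlapped for both LHY genes.

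The balance between the LHY paralogs was not constant. The ratio of the reads of LHY1 to those of LHY2, which needs no normalization between libraries, was 1.12, 1.11 and 1.88 in CK, 1.63, 1.35 and 1.99 in Cd and 2.78, 0.896 and 2.8 in Cd + N. Cd + N replicates 1 and 3 had the highest ratios and Cd + N replicate 2 the lowest, so the range of 1 treatment held that of the others. LHY1 and LHY2 correlated over the 9 libraries with a Pearson r of 0.67, which did not pass the threshold (exact permutation p = 0.0499, adjusted p = 0.125 over 15 pairs of members).

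TOC1, the evening repressor of LHY, had the smallest SD of the 6 genes over the 9 libraries, 0.19 on the log2 scale, while within groups its SD of 0.18 was above the 0.15 of GI-like. It had 91.6, 94 and 83.9 CPM in CK and 91.7, 64.7 and 71.6 CPM in Cd. Again Cd replicate 1 was within the control range and the other Cd libraries were outside it, here below it. Under Cd + N it had 89.4, 73.4 and 85.5 CPM. The libraries with the least TOC1 were Cd replicate 2, Cd replicate 3 and Cd + N replicate 2, which are also the libraries with the most LHY2.

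GI and GI-like, the pair of GIGANTEA genes, were lower in the Cd libraries than in most others. GI had 236, 295 and 222 CPM in CK, 229, 172 and 161 in Cd and 253, 262 and 269 in Cd + N. All Cd + N libraries were above all Cd libraries, and the libraries of Cd + N were the closest to each other, with a coefficient of variation of 3.07%. Cd replicate 1 lay above CK replicate 3, so Cd and CK overlapped. GI-like had 227, 286 and 232 CPM in CK, 197, 190 and 175 in Cd and 213, 263 and 214 in Cd + N. All Cd libraries were below all CK and all Cd + N libraries, and Cd replicate 1 was no exception here.

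The ratio of the reads of GI to those of GI-like, again not corrected for length, was 1.04, 1.03 and 0.956 in CK, 1.16, 0.909 and 0.923 in Cd and 1.19, 0.996 and 1.26 in Cd + N. It was above 1 in replicate 1 of each group, and from 0.909 to 1.26 it had a narrower range than the ratio of the LHY paralogs. Whether reads shared by paralogs were counted once, split or dropped is not given in the sources used here, so single values of the LHY and GI pairs are uncertain to that extent.

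To set the libraries in order from morning-like to evening-like, the mean log2 CPM of TOC1, GI and GI-like was subtracted from that of LHY1 and LHY2 in each library. This difference was then expressed relative to its mean over the 9 libraries and is a description, without a test. It was highest in Cd replicates 2 and 3, at 1.39 and 1.04 on the log2 scale, and lowest in Cd replicate 1, at -0.85. In CK it was -0.70, -0.82 and -0.34, and in Cd + N it was 0.36, 0.01 and -0.09. The 3 control libraries and Cd replicate 1 thus formed the low end of the order, the Cd + N libraries the middle, and the remaining Cd libraries the high end. Cd replicates 2 and 3 were also the highest in all 5 other ways of computing the difference. Upper-quartile factors repeated the values, since the factor of a library all but cancels in this difference, and are no separate check. The low end was less fixed, since a CK library was lowest in the other 4. With log2(FPKM + 1), for example, CK replicate 2 was at -0.40 and Cd replicate 1 at -0.07.

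The means of both sides of the clock set Cd replicates 2 and 3 apart, while the order of the other libraries rested mainly on the morning genes. Relative to their 9-library means, the morning genes of Cd replicate 2 were 1.06 higher on the log2 scale and its evening genes were at -0.32. In Cd replicate 3 these values were 0.69 and -0.34. For single evening genes other libraries came close. GI-like was at -0.21 in Cd replicate 2 and -0.16 in Cd replicate 1, and TOC1 at -0.20 in Cd replicate 3 and -0.16 in Cd + N replicate 2. In Cd replicate 1 the morning genes were at -0.85 and the mean of the evening genes at 0.00. Its evening genes differed, with TOC1 at 0.16, GI at 0.00 and GI-like at -0.16. This library thus stood low in LHY without standing high in the evening mean. In CK replicate 2 the evening genes were highest, at 0.31, with the morning genes at -0.50. The Cd + N libraries had evening genes between 0.07 and 0.10, within the 0.02 to 0.31 of CK. The mean of their morning genes was from 0.00 to 0.44 and that of CK from -0.62 to -0.32, so these groups were apart in this mean only. Neither LHY gene alone was apart between them. In Cd + N replicate 2, LHY1 was at -0.31 and LHY2 at 0.52, with a mean of 0.10.

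**Figure D2:**
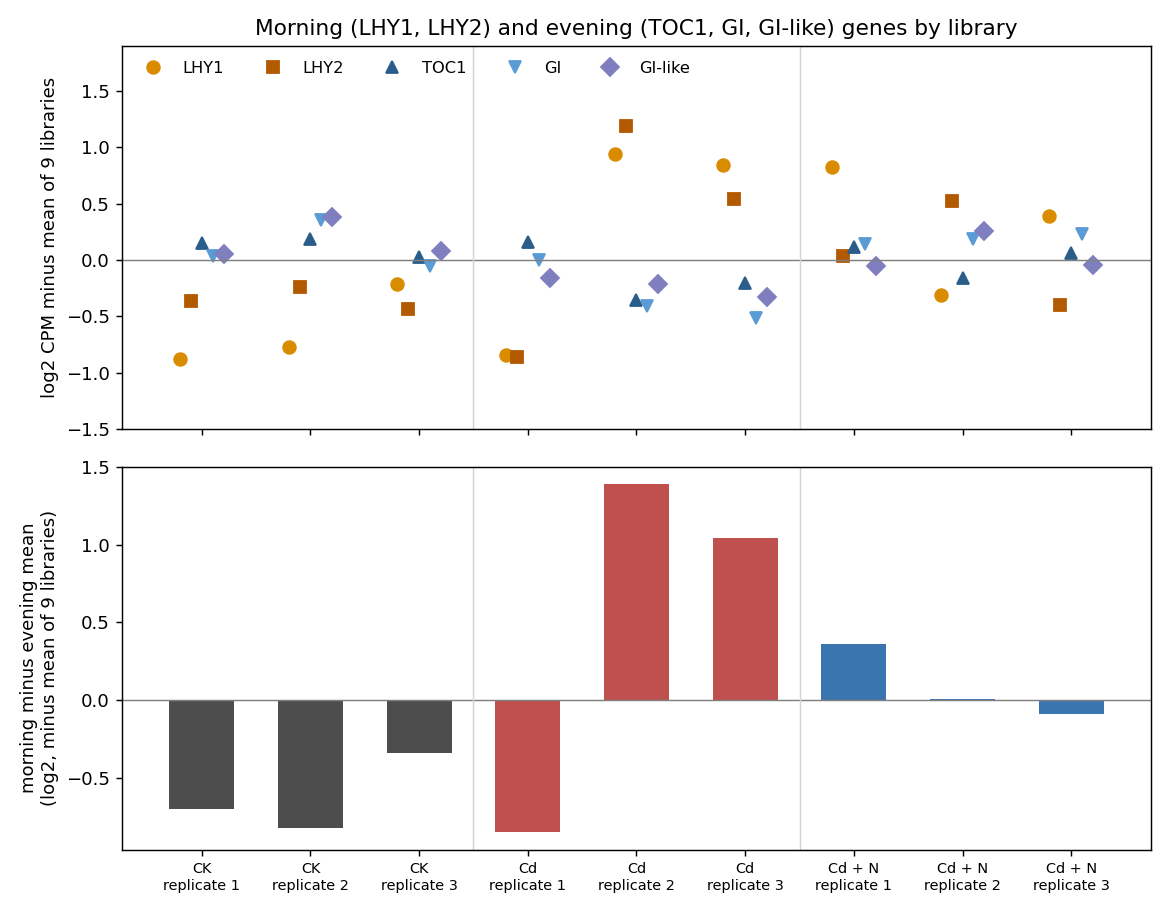
Upper panel: log2 CPM of each morning and evening gene minus its mean over the 9 libraries (y axis) in every library (x axis), and lower panel: mean of the morning genes minus mean of the evening genes on the log2 scale, relative to the 9-library mean, with 1 bar per library coloured by group. Cd replicates 2 and 3 reach 1.39 and 1.04 with the LHY genes above and the evening genes below 0, while Cd replicate 1, at -0.85, lies at the level of the controls.

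The spread of this difference was largest within Cd. Its mean, before centring, was -5.60 ± 0.25 in CK, -4.45 ± 1.20 in Cd and -4.88 ± 0.24 in Cd + N (SD, n = 3 each). CK ran from -5.79 to -5.32 and Cd + N from -5.06 to -4.61 without overlap. Cd ran from -5.83 to -3.59 and spanned both. Taken singly, each morning and each evening gene overlapped between CK and Cd + N, where 26.2% of all genes did not overlap. Without Cd replicate 1 the 2 remaining Cd libraries had a mean of -3.77 and lay above all others. With log2(FPKM + 1), CK and Cd + N overlapped, as CK replicate 3 was at -0.11 and Cd + N replicate 2 at -0.13 relative to the mean, and Cd replicate 1 was above all CK libraries.

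Correlations were computed for the 15 pairs of members over the 9 libraries with an exact permutation test, and 1 pair passed the threshold after adjustment. This pair was LHY2 and TOC1, with a Pearson r of -0.90 (exact permutation p = 0.00201, adjusted p = 0.0302). The call was lost in 7 of 13 alternatives, namely on both FPKM scales and without any one of 5 libraries, with adjusted permutation p-values of up to 0.147. Its Spearman rho was -0.65 (exact permutation p = 0.0666, adjusted p = 0.2). The libraries were cut into sets by taking the 3 with the highest LHY2. This cut, from 2.05 to 2.53 log2 CPM, was not the widest step in LHY2, as Cd replicates 3 and 2 had 2.55 and 3.20. Cd replicate 2, Cd replicate 3 and Cd + N replicate 2 had LHY2 from 2.53 to 3.20 and TOC1 from 6.02 to 6.20 log2 CPM. The other 6 had LHY2 from 1.15 to 2.05 and TOC1 from 6.39 to 6.56, and among these 6 libraries r was -0.01 and rho 0.20. Since these 6 were picked by their LHY2 values, which narrows the range, this r is a description only. Without Cd replicates 2 and 3, the libraries farthest from the median of LHY2, r was -0.69. With deviations from the group means in place of the values, r was -0.88.

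The other pairs did not pass the adjusted threshold. The signs over the 9 libraries were those of opposed morning and evening genes, as r was negative in all 6 pairs of a morning and an evening gene, from -0.90 to -0.25. Among the evening genes r was positive, at 0.82 for GI and GI-like (Spearman rho 0.73), 0.72 for TOC1 and GI (0.60) and 0.43 for TOC1 and GI-like (0.45). Their exact permutation p-values for r were 0.00829, 0.0324 and 0.245, and the adjusted ones 0.0622, 0.0973 and 0.334. Without Cd replicates 2 and 3 these correlations were 0.63, 0.02 and -0.24, and those of LHY1 with TOC1 and with GI were -0.23 and 0.13. Those of LHY1 with GI-like and of LHY2 with GI and GI-like were -0.30, 0.43 and 0.56. Without these Cd libraries, r was thus below 0 for 3 of the 6 pairs of a morning and an evening gene, among them both pairs with TOC1, and above 0 for the other 3.

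To show how such values compare with other genes, each member was ranked among the 23374 other genes with a mean of at least 1 CPM. Only 1.02% of them had an r with LHY2 as low as that of TOC1. GI-like was within the highest 2.16% of genes by r with GI, and LHY2 within the highest 7.78% by r with LHY1. TOC1 was within the lowest 9.81% by r with LHY1. An r over 0.9 with a given member was reached by 49 to 270 genes, or 0.21% to 1.16% of them. The ranks describe these 9 libraries only.

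**Figure D3:**
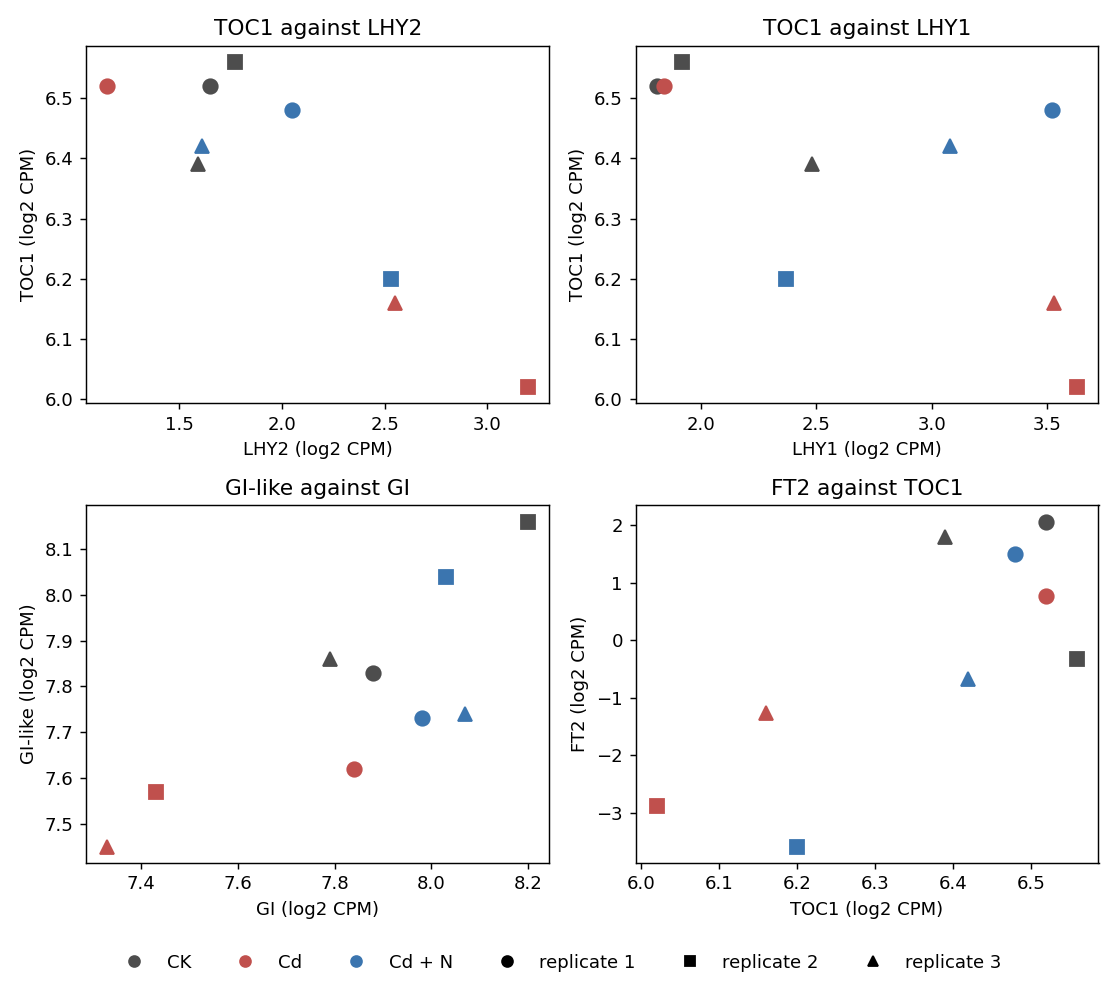
Log2 CPM of TOC1 against LHY2 and LHY1, of GI-like against GI and of FT2 against TOC1, with 1 point per library coloured by group and shaped by replicate number. The 3 libraries with the highest LHY2 have the lowest TOC1, and within the other 6, picked by their LHY2, the Pearson r is -0.01.

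FT2, the photoperiod output, varied more between replicate numbers than between treatments. It had 4.1, 0.746 and 3.39 CPM in CK replicates 1, 2 and 3, from 157, 24 and 121 reads. Under Cd it had 1.65, 0.0795 and 0.357 CPM, from 48, 3 and 14 reads. Under Cd + N it had 2.78, 0.0271 and 0.574 CPM, from 95, 1 and 22 reads. Replicate 1 was highest and replicate 2 lowest in each of the 3 groups, and an order that is the same in all groups was found for 7.75% of all genes tested. None of the other 5 members had one. The lowest values are imprecise, as the Poisson interval of Cd + N replicate 2 ran from 0.000687 to 0.151 CPM and that of Cd replicate 2 from 0.0164 to 0.232.

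Of the variation of FT2 in log2 CPM, 63.5% lay between replicate numbers, 29.6% between treatments and 6.92% was left. For the other members the share between replicate numbers was from 7.93% in GI to 37.3% in LHY2, and for the median gene it was 26.3%. GI and GI-like had the largest shares between treatments, at 63.9% and 64.4%, against a median of 33.5% for all genes. LHY1 had 36.9%, TOC1 33.6% and LHY2 18.8%. The spread of FT2 within groups, a pooled SD of 1.96 on the log2 scale, was above that of 97.7% of the 4300 genes whose mean CPM lay within 2-fold of its own. What the replicate numbers stand for is not given, so the source of this order was not tested.

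FT2 was compared with the clock genes over the same libraries. The correlation with TOC1 was 0.78 (exact permutation p = 0.0153, adjusted p = 0.0766) and that with LHY2 was -0.75 (exact permutation p = 0.0205, adjusted p = 0.0769). The Spearman rho was 0.60 and -0.65, with exact permutation p-values of 0.0968 and 0.0666. Without Cd replicates 2 and 3 the Pearson r was 0.72 and -0.63. The 3 libraries with the least FT2 were Cd + N replicate 2, Cd replicate 2 and Cd replicate 3, the same as those with the least TOC1 and the most LHY2. Among the other 6 libraries, a set picked by its values, the r of FT2 was -0.10 with TOC1 and 0.10 with LHY2. Over all 9 libraries FT2 had an r of 0.23 with GI and 0.01 with GI-like.

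The comparison Cd/CK asks whether Cd in the soil changed these transcripts. By edgeR's quasi-likelihood test with Benjamini-Hochberg adjustment over all genes, 0 of the 6 members passed the threshold of 0.05, and the share over all genes tested was 0%. DESeq2 called 0 of the 6 as well, where it called 2.12% of all genes. At an unadjusted p under 0.05 edgeR gave 2 members, against 9.88% of all genes. These were LHY1, at a log2 fold change of 1.11 (SE 0.48, adjusted p = 0.501 by edgeR), and GI-like, at -0.41 (SE 0.16, adjusted p = 0.458 by edgeR). GI, at -0.42 with an adjusted p of 0.508 by edgeR, missed it.

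The log2 fold change in Cd/CK was 0.87 for LHY2, with an approximate 95% interval from -0.21 to 1.94. It was -0.24 for TOC1, from -0.59 to 0.11. The intervals of GI and GI-like, the members with the most reads, were narrow and excluded a change of 2-fold in either direction. They ran from -0.84 to 0.00 for GI and from -0.77 to -0.05 for GI-like. For LHY1 it ran from 0.01 to 2.21, and for FT2, at -2.01, from -5.12 to 1.11. The groups did not overlap for 1 of the 6 members, GI-like, and for 14.7% of all genes.

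The size of these values depended on single libraries. Without Cd replicate 1, the log2 fold change in Cd/CK was 1.5 for LHY1, 1.26 for LHY2, -0.39 for TOC1, -0.58 for GI, -0.43 for GI-like and -3.62 for FT2. The adjusted p by edgeR was then 0.0758 for LHY1, 0.0902 for LHY2 and 0.124 for GI, still past none of the thresholds, where 1.79% of all genes were called. Other omissions lowered the values. Without Cd replicate 2, the log2 fold change was 0.35 for LHY2, -0.14 for TOC1 and -1.47 for FT2. Without CK replicate 2, it was -0.28 for GI and -0.29 for GI-like. The scaling also mattered for the evening genes. In FPKM, scaled to the total count alone, TOC1, GI and GI-like did not overlap between Cd and CK, all being lower in Cd, which makes 3 of 6 members against 12.8% of all genes.

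The comparison Cd + N/Cd asks whether nitrogen changed these transcripts in plants that received Cd. Again 0 of the 6 members passed the threshold by edgeR or by DESeq2, with 0% and 3.53% of all genes called by these tools. At an unadjusted p under 0.05 edgeR gave 1 member, GI, against 12.5% of all genes. GI was at 261 ± 8.02 CPM under Cd + N and 188 ± 36.4 under Cd (SD, n = 3 each), a log2 fold change of 0.48 (SE 0.18, adjusted p = 0.354 by edgeR). GI-like was at 0.30, with an interval from -0.07 to 0.66.

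For both GIGANTEA genes the Cd + N libraries did not overlap with the Cd libraries, that is 2 of 6 members, where 17.6% of all genes did not overlap. Leaving out single libraries, the value for GI ranged from 0.39 to 0.63. The morning genes showed no such separation. LHY1 had a log2 fold change of -0.14 (interval from -1.22 to 0.94) and LHY2 of -0.42 (from -1.48 to 0.65), and the sign of both turned without Cd replicate 2, at 0.14 and 0.10. For LHY1 it also turned without Cd replicate 3, at 0.07, and without Cd + N replicate 2, at 0.11. The value for FT2 was 0.71, with an interval from -2.36 to 3.79, and it was -1.18 without Cd + N replicate 1. Comparisons Cd/CK and Cd + N/Cd share the Cd libraries, so opposite signs of a gene in them are not independent.

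**Figure D4:**
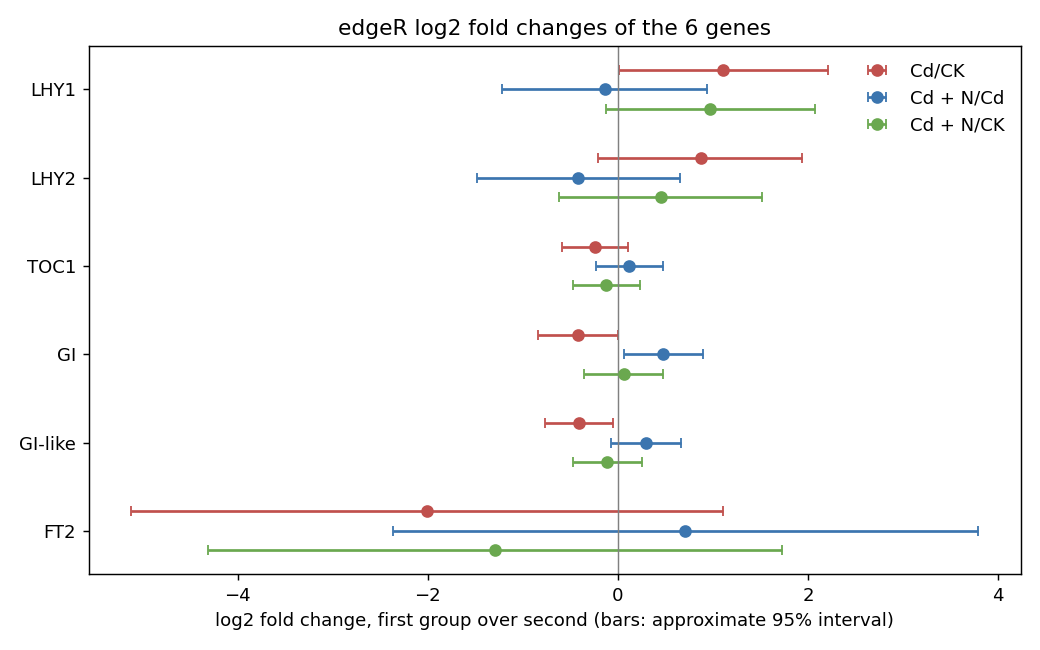
Log2 fold changes of the 6 genes by edgeR (x axis) in the 3 comparisons, each with an approximate 95% interval. None of the 18 values passed an adjusted p of 0.05, and the intervals of TOC1, GI and GI-like lie within 1 log2 unit of 0, while those of FT2 span from -5.12 to 3.79.

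The comparison Cd + N/CK sets plants with both additions against the control. By edgeR 0 of the 6 members passed the threshold, where 0.267% of all genes did. None passed at an unadjusted p under 0.05 either, where 17.1% of all genes did, and DESeq2 called 0 members and 7.27% of all genes. The largest value among the clock genes was that of LHY1, at 0.97 (SE 0.48, adjusted p = 0.338 by edgeR). LHY2 was at 0.45, and TOC1, GI and GI-like were at -0.12, 0.06 and -0.11, with intervals that all lay within 0.48 of 0 on the log2 scale. All 6 members overlapped between these groups, whereas 26.2% of all genes did not.

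FT2 had a log2 fold change of -1.29 in Cd + N/CK without a replicate block. It was -3.18 without Cd + N replicate 1 and -0.72 without Cd + N replicate 2. In this comparison the deviations of same-numbered libraries from their group means correlated across genes by 0.12 to 0.32. Those of other pairs of libraries did so by -0.33 to 0.27, so a pairing by number is not established. With the number as a block the log2 fold change was -2.19 (unadjusted p = 0.0127, adjusted p = 0.102 by edgeR). FT2 was lower under Cd + N than in CK in 3 of 3 same-numbered pairs. For this order and for the unadjusted p with the block, the share over all genes is not given, so both are descriptions only. With the block 0 of the 6 members passed the threshold, against 5.27% of all genes.

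The genes with the pattern most like each member over the 9 libraries were sought by Pearson r in log2 CPM among genes with a mean of at least 1 CPM. None of the 3 nearest genes of any member was itself a member. The nearest gene to LHY1 was Potri.004G015200.v3.0, with an r of 0.974. For LHY2 it was Potri.015G017700.v3.0, with 0.987, and for TOC1 it was Potri.014G116000.v3.0, with 0.986. For GI and GI-like they were Potri.010G151300.v3.0 and Potri.001G264100.v3.0, with 0.984 and 0.98, and for FT2 it was Potri.T063500.v3.0, with 0.978. These identifiers were not annotated here, and with 23374 genes and 9 libraries values of this size arise for many genes.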

How the data were processed

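Leaf RNA was sequenced in 9 libraries, whose titles give the group and the replicate number. The deposited tables hold raw read counts for each gene and FPKM, which the authors derived from these counts and a gene length. The submitters' processing notes name Bowtie2 2.0.6 and TopHat2 2.0.12. The counting tool, the strand setting and the genome build are not given in the sources used here. Members were picked by a rule that uses no measured value, but members and lists were proposed with earlier results of these data known.

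The counts were fitted by edgeR 4.0.16 under R 4.3.3 (filterByExpr with a minimum count of 10 and a minimum total of 15, TMM factors, quasi-likelihood test on all 9 libraries without a block, Benjamini-Hochberg adjustment over 27378 genes, threshold 0.05). The SE was approximated by dividing the absolute log2 fold change by the root of the F statistic, and intervals follow from it. Log2 CPM has a prior count of 2. Correlations used all 362880 pairings (two-sided). The test was checked on simulated data, where most changes of 2-fold were not called. A gene without a call is therefore not shown to be unchanged. The genes to name were the 6 members and, for each, the 3 genes with the highest r, of which the first is given. Other clock genes and leaf markers were to be found by annotation, which was not used here, so they are not reported and the tissue label was not checked. In CK and Cd + N, the deviations of same-numbered libraries from the group means correlated across genes by 0.12 to 0.32, all over the limit of 0.1 set for pairing. In the other comparisons 2 of 3 same-numbered pairs were over it. Differently numbered pairs over it were 1 of 6 in CK and Cd + N and 2 of 6 in Cd and Cd + N. In CK and Cd they were 0 of 6. Alternatives were DESeq2 1.42.0, upper-quartile factors, no filter, the block, only the 2 groups compared, limma 3.58.1 on log2(FPKM + 1) and log2(FPKM + 0.1) for genes with at least 1 FPKM in at least 3 libraries, the first also without this filter, an unadjusted p, and leaving out each library. The morning minus evening difference was also computed with upper-quartile factors, on both FPKM scales, as LHY1 minus TOC1 and as the LHY pair minus the GI pair.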

Additional observations from a re-analysis of the deposited data

How the results depend on the processing

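No member passed an adjusted p of 0.05 in any of the 3 comparisons under the 17 alternatives fitted, the replicate block among them (0 members in each comparison). In Cd/CK, 2 of 3 same-numbered pairs and 0 of 6 other pairs correlated over the limit of 0.1. The block there gave FT2 a log2 fold change of -2.66 (edgeR unadjusted p = 0.00564 against 0.178 without it, adjusted p = 0.247). FT2 was lower under Cd in 3 of 3 same-numbered libraries. Of the members it had the largest share of variation between replicate numbers, 63.5%, which the block takes out. For the unadjusted p with the block and for this order, the share over all genes is not given. Both are descriptions only, as what the numbers stand for is not known. LHY1 and LHY2 were removed by the filter of the 2 filtered FPKM fits. Without this filter, log2(FPKM + 1) gave them Cd/CK log2 fold changes of 0.34 and 0.14, against 1.11 and 0.87 from counts. The smallest adjusted p was 0.0758, for LHY1 in Cd/CK without Cd replicate 1. An unadjusted p gave 2 members for Cd/CK and 1 for Cd + N/Cd, which passes more genes by construction. With each library left out, the number of members stayed at 0, and these log2 fold changes included a change of sign: in Cd + N/Cd from -0.54 to 0.14 for LHY1, from -0.82 to 0.10 for LHY2 and from -1.18 to 2.33 for FT2, and in Cd + N/CK from -0.03 to 0.19 for GI and from -0.22 to 0.00095 for GI-like. The cause was not tested.

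The correlation of LHY2 and TOC1 was between -0.93 and -0.80 in all 13 alternatives, but its adjusted p was over 0.05 in 7 of them, both FPKM scales included, and reached 0.147 without Cd replicate 2. Correlations of GI-like changed sign. With FT2 it was -0.16 in log2(FPKM + 1), -0.22 in log2(FPKM + 0.1), -0.64 with deviations from group means, and from -0.19 to 0.39 with libraries left out. With LHY2 it was 0.01 in log2(FPKM + 0.1) and 0.13 with deviations from group means, where it was -0.05 with TOC1. That of GI with FT2 ran from -0.03 to 0.50 with libraries left out. GI and GI-like passed the threshold without Cd + N replicate 3, at 0.88. Of the morning minus evening values computed in another way, 39 moved by less than the SD of their own group and 6 by more. This SD was 1.20 in Cd against 0.25 in CK and 0.24 in Cd + N, a wide limit for Cd. With log2(FPKM + 1), Cd replicate 2 went from 1.39 to 0.49 and still fell among the 39. The 39 also hold the values with upper-quartile factors, which could hardly move. Counts of FT2 down to 1 read limit its values.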
